A study of Arabidopsis thaliana with 24 samples.

Results

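The comparison described here is that of Arabidopsis thaliana roots kept in phosphate-replete solution, 6 h against 1 h after a transfer to fresh solution. Its members were the 3 arrays labelled 6 h with phosphate and the 3 labelled 1 h with phosphate, which is 6 of the 24 arrays of the series, and they were paired by the number of the experiment (1, 2 or 3) that the labels give. The series followed hydroponically grown plants, 30 days old, that were rinsed in 0.1 mM EDTA and moved either to solution with 1.5 mM phosphate (plus Pi) or to solution without it (minus Pi). Roots were taken at 0, 1, 6 and 24 h, which gives 8 groups of 3 arrays, and about 20 plants went into each time point of an experiment. The transfer was made 1 h into a light period of 10 h. The 1 h roots were thus taken 2 h into the light and the 6 h roots 7 h into it, while the 0 h and 24 h roots both fell 1 h into the light. Both groups had been through the rinse and the transfer, and both stood in the same phosphate concentration, with 3 mM nitrate and 40 µM iron in the standard solution. The labels name no genotype or accession, and each array stands for pooled roots, so that a change in the amount of an RNA per cell and a change in the share of cells that hold it cannot be told apart.

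Time since transfer and time of day run together in this comparison. In plants the time of day acts through the circadian clock, a network of transcription factors that repress one another in turn. Proteins of the morning and of midday are replaced by those of the evening, and the LNK proteins, which peak in the morning, act with the REVEILLE (RVE) factors to switch on the evening genes, among them PRR5 and TOC1. The pseudo-response regulators (PRR) follow one another through the day, PRR9 first and TOC1 (PRR1) last, and GIGANTEA (GI) is an evening-phased protein that helps to set the stability of TOC1 through the F-box protein ZEITLUPE (ZTL). Roots keep such a clock and receive timing and sugar from the shoot.

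Of 22746 probe sets tested, 487 (2.14%) differed between 6 h and 1 h in plus Pi roots, by limma with the experiment as a block and an adjusted p under 0.05. At 6 h 207 of them (0.91%) were higher and 280 (1.23%) lower. The direction was the same in all 3 experiments for 486 of the 487, and the median size of their change was 0.69 on the log2 scale, against 0.10 over all probe sets tested. Both values follow largely from the calling, which used these same changes, and are no separate support for it. At least a 2-fold change was seen at 100 probe sets (0.44%), 48 of them higher and 52 lower. A single gene was named for 327 of the 487, several genes for 8 and none for 152, and the largest change of all, -4.36 on the log2 scale, was at a probe set that is not named here.

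The 6 arrays differed more by experiment than by time. The first principal component held 53.1% of their variance, 98.8% of it between experiments, and the second held 19.2%, 63.0% of it between the 2 times. Without the experiment as a block, 132 probe sets (0.58%) passed, all of them among the 487, and a fit on the 6 arrays alone called 29. The count also fell when single arrays were left out, to 294, 282 and 298 without the 1 h array of experiment 1, 2 or 3, and to 232 without the 6 h array of experiment 1 or of experiment 2. It was 437 without the 6 h array of experiment 3. Probe sets called from 2 experiments alone kept their direction in the experiment left out in 144 of 151, 85 of 87 and 143 of 157 cases for experiments 1, 2 and 3, which is 95.4%, 97.7% and 91.1%, against 58.6%, 59.3% and 56.5% of all probe sets. The arrays of the 3 experiments were separate samples by the labels. With the experiment as a block, the differences between experiments that all groups share are removed. The p-values of that fit measure the spread that is left, pooled over all arrays of the series and not only the 6 compared here.

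Among the genes of the morning, those that changed fell. Of 14 morning clock genes listed, 8 had a probe set of their own. Of all probe sets 1.23% were called lower and 0.91% higher, and of these 8 genes 4 were lower at 6 h and 0 higher. The median change of the 8 was -0.73 against 0.01 over all probe sets. The 4 were LNK2, LNK4, LNK1 and RVE1, and all 4 were also called without the block. LNK2 (AT3G54500) measured 9.07, 8.33 and 8.63 log2 units in the 1 h arrays of experiments 1, 2 and 3, and 5.54, 4.85 and 4.49 in the 6 h arrays. Every 6 h array was thus far below every 1 h array, and fell by 3.72 (SE 0.22, adjusted p = 3.14e-08) or 13.1-fold, the largest of any named gene. LNK2 stood at 9.23 ± 0.50 (SD, n = 3) at 0 h and at 9.44 ± 0.65 (SD, n = 3) at 24 h, so that its 3 early-day levels lay close together and the level 7 h into the light stood apart.

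LNK4 (AT5G06980) measured 8.88, 8.67 and 8.45 at 1 h and 6.82, 6.81 and 5.89 at 6 h, and fell by 2.16 (SE 0.24, adjusted p = 8.75e-05). LNK1 (AT5G64170) measured 8.55, 8.08 and 8.59 at 1 h and 6.85, 6.64 and 6.91 at 6 h, and fell by 1.61 (SE 0.13, adjusted p = 1.62e-06). The groups of both genes were well apart in every experiment, and both calls were kept without any one array and without any one experiment. RVE1, a clock-controlled MYB factor that promotes auxin synthesis, fell less, from 5.12, 4.96 and 5.31 to 4.40, 4.12 and 4.39 (it fell by 0.83, adjusted p = 0.00686). Its call was kept without any one array and was lost without any one experiment (adjusted p 0.14, 0.054 and 0.076 without experiment 1, 2 and 3).

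The other 4 morning genes measured did not pass. LCL1, a close relative of the core morning factors, changed by -0.64 with the same sign in 3 experiments (adjusted p = 0.189), and RVE2 by -0.49 (adjusted p = 0.219). PRR7, which peaks around midday, measured 8.09, 8.32 and 8.65 at 1 h and 8.07, 8.09 and 8.12 at 6 h (adjusted p = 0.564). The groups of PRR7 overlapped, and its 6 h levels were the tightest of the clock genes named.

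Among the genes of midday and evening, those that changed rose. Of 12 listed, 6 were measured, and 4 were higher at 6 h and 0 lower, with a median change of 0.99. Of all probe sets 0.91% were called higher and 1.23% lower. TOC1 (AT5G61380) measured 7.47, 7.79 and 7.72 at 1 h and 9.14, 8.74 and 8.80 at 6 h, a rise of 1.23 (SE 0.15, adjusted p = 0.000147) or 2.35-fold. PRR3 (AT5G60100), which protects TOC1 from ZTL, measured 4.42, 5.86 and 5.91 at 1 h and 6.59, 7.19 and 6.89 at 6 h, a rise of 1.50 (SE 0.19, adjusted p = 0.000321). Both genes were higher in every 6 h array than in any 1 h array, and both calls were kept without any one array or experiment.

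GI (AT1G22770) rose from 8.88, 9.0 and 9.46 to 9.90, 9.94 and 9.77, by 0.76 (SE 0.12, adjusted p = 0.00241). PRR5 (AT5G24470), a daytime repressor of the morning genes, measured 5.28, 5.67 and 5.88 at 1 h and 8.02, 6.47 and 6.69 at 6 h, a rise of 1.45 (SE 0.37, adjusted p = 0.0481). The change of PRR5 was 2.75 in experiment 1 against 0.80 and 0.81 in experiments 2 and 3. Its call was lost without any one of 5 of the 6 arrays (adjusted p up to 0.25) and without experiment 2 (0.25) or 3 (0.15), and it was kept without experiment 1 (0.012). Without the block only TOC1 of the 4 passed, and the adjusted p was 0.321 for PRR3, 0.139 for GI and 0.114 for PRR5. GI also lost its call without experiment 1 (adjusted p = 0.083) or experiment 2 (adjusted p = 0.19). ZTL, whose protein rather than RNA is known to cycle, changed by 0.17 (adjusted p = 0.593).

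**Figure D1:**
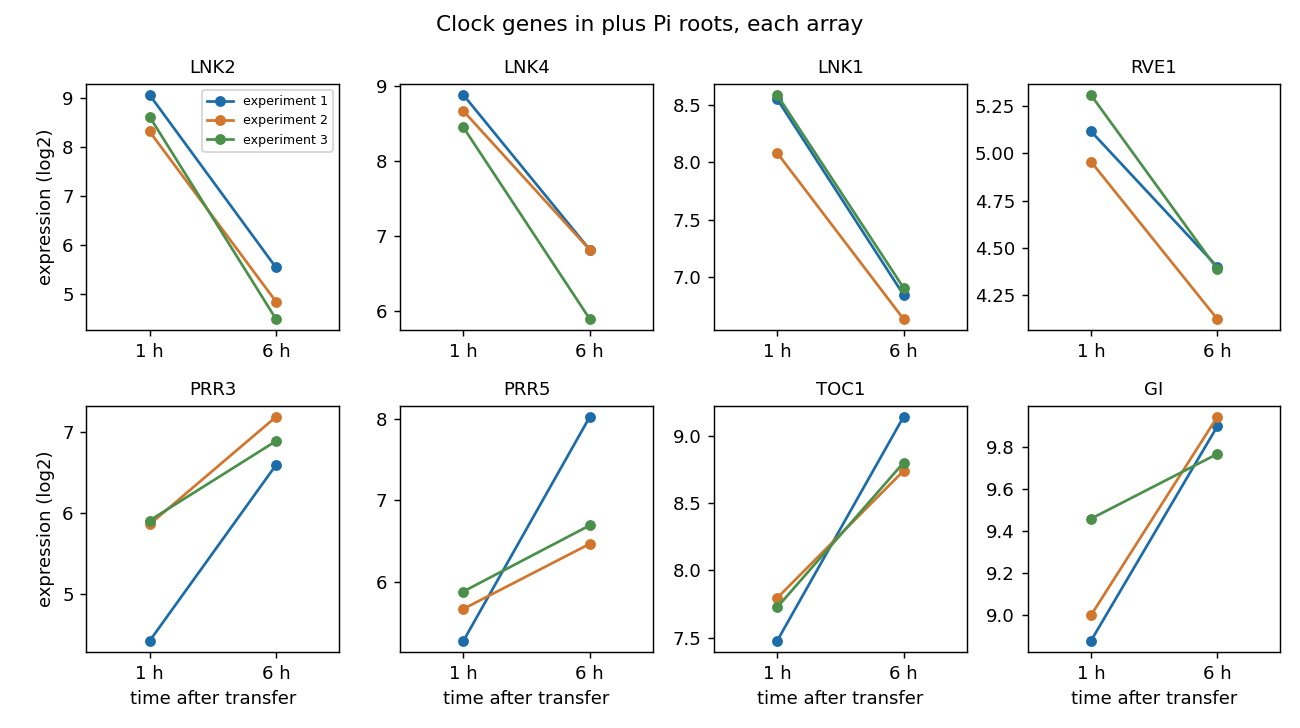
Expression (log2, y axis, a scale of its own in each panel) of 8 clock genes at 1 h and 6 h after transfer in plus Pi roots. Each line joins the 2 arrays of 1 experiment; LNK2, LNK4, LNK1 and RVE1 fell and PRR3, PRR5, TOC1 and GI rose in each of the 3 experiments, with the steepest PRR5 line in experiment 1.

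Among 9 measured genes that carry clock time to other processes, 2 fell and 0 rose, beside 1.23% and 0.91% of all probe sets. CDF3, a member of the cycling DOF factors that are broken down through GI, measured 9.27, 7.80 and 8.20 at 1 h and 7.85, 7.02 and 6.95 at 6 h, and fell by 1.15 (adjusted p = 0.00557; 0.578 without the block). Its groups overlapped across experiments although each experiment fell. BBX19, a B-box protein of seedling and flowering control, fell by 0.89 from 7.04, 6.88 and 6.84 to 5.81, 6.05 and 6.24 (adjusted p = 0.00119). CDF1 and CDF2 changed by -0.77 and -0.52 with the same sign in all experiments but did not pass (adjusted p = 0.252 and 0.127). CCR1, a cycling glycine-rich RNA-binding protein, changed by 0.54 (adjusted p = 0.108).

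Of the 15 largest rises among named genes, only PRR3 and PRR5 were in the clock lists used here, which need not hold every clock gene. PDF2.1, a plant defensin, measured 5.63, 5.23 and 7.88 at 1 h and 10.63, 9.69 and 9.28 at 6 h, a rise of 3.62 (SE 0.49, adjusted p = 0.000506) or 12.3-fold. Its 1 h array of experiment 3 was the high one, so the change was 1.4 there against 5.0 and 4.46 in experiments 1 and 2. LCR69, another defensin-like gene with 1 protein-coding gene between it and PDF2.1 on chromosome 2, was already strong at 1 h (10.21, 10.38 and 10.98) and measured 12.49, 12.15 and 11.75 at 6 h, a rise of 1.61 (adjusted p = 0.00127). Both defensin genes were higher in every 6 h array than in any 1 h array.

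AT4G33980 rose from 3.94, 4.88 and 4.41 to 7.07, 7.19 and 6.39, by 2.48 (SE 0.28, adjusted p = 8.01e-05). AT5G62360 measured 6.47, 5.79 and 4.49 at 1 h and 9.43, 9.04 and 6.55 at 6 h, a rise of 2.76 (adjusted p = 0.00666; 0.0722 without the block). The first of these was low at 1 h in all experiments, and the second was lowest in experiment 3 at both times. DYL1, a dormancy-associated gene known from resting buds, rose by 1.87 from 9.55, 9.0 and 8.92 to 11.33, 10.96 and 10.78 (adjusted p = 0.000856), with changes of 1.78, 1.96 and 1.86 in the 3 experiments. BBX8, a B-box protein related to CONSTANS, also rose by 1.87, from 4.99, 5.71 and 5.84 to 7.54, 7.36 and 7.25 (adjusted p = 0.000121). BGAL2, a beta-galactosidase, rose by 1.50 (adjusted p = 0.0128) and EXLB1, an expansin-like wall protein, by 1.49 (adjusted p = 0.00187; 0.0909 without the block). The remaining rises among the 15 largest were 2.11 for AT1G56300, 1.86 for AT2G16365, 1.77 for AT5G60760, 1.66 for AT4G32340 and 1.62 for AT1G11210, beside those of PRR3 and PRR5. The reference used here gives these 5 loci no name.

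Among the 15 largest falls, 3 were LNK genes. bZIP58, a basic leucine zipper factor, measured 8.89, 8.86 and 7.41 at 1 h and 6.10, 5.51 and 5.15 at 6 h, and fell by 2.80 (SE 0.31, adjusted p = 7.34e-05) or 6.95-fold. bZIP5, of the same superfamily, fell by 1.57 from 6.96, 6.77 and 6.68 to 4.86, 5.42 and 5.42 (adjusted p = 0.0078). Both were lower in every 6 h array than in any 1 h array. JAZ10, a repressor that jasmonate both destroys and induces, measured 6.65, 7.31 and 7.14 at 1 h and 4.71, 4.65 and 5.18 at 6 h, and fell by 2.18 (SE 0.30, adjusted p = 0.000627). The 6 h levels lay nearer to the 0 h mean of 5.44 ± 0.27 (SD, n = 3) than the 1 h levels did. PRN, a pirin of the cupin family, fell by 1.83 from 8.97, 8.96 and 9.96 to 7.29, 7.38 and 7.74 (adjusted p = 7.51e-06).

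F3H, the flavanone 3-hydroxylase of flavonoid synthesis, measured 6.83, 8.83 and 6.14 at 1 h and 4.79, 4.89 and 4.70 at 6 h. The 1 h arrays were spread widely and the 6 h arrays lay within 0.2 of one another, and the change of -2.47 had an SE of 0.55 (adjusted p = 0.0237; 0.081 without the block and 0.13 without the 1 h array of experiment 2). SPS2F, a sucrose-phosphate synthase, fell by 1.61 (adjusted p = 0.00292; 0.0627 without the block). ABCI21, an ABC transporter-family protein, fell by 1.78 (adjusted p = 0.00661; 0.0683 without the block) and stood at 10.67 ± 0.67 (SD, n = 3) at 0 h and 10.81 ± 0.21 (SD, n = 3) at 24 h, both means above every 1 h and 6 h array. ARGOS, an auxin-induced gene of organ growth, measured 8.53, 6.46 and 6.95 at 1 h and 5.25, 6.19 and 5.38 at 6 h (adjusted p = 0.0322; 0.119 without the block), with changes from -0.27 in experiment 2 to -3.28 in experiment 1. The changes of -1.73 at AT1G32970 (adjusted p = 0.0281; 0.591 without the block), -1.68 at AT3G16800 and -1.60 at AT4G15430 belong to loci with no name in the reference used here. Of the 30 genes with the largest changes, 20 kept their call without any single array. Of the other 10, 5 rose and 5 fell, and the highest adjusted p without 1 array was 0.25 for PRR5, 0.092 for AT1G11210, 0.082 for BGAL2, 0.054 for AT5G62360 and 0.053 for AT2G16365 among the rises. It was 0.20 for ARGOS, 0.15 for XTH19, 0.14 for AT1G32970, 0.13 for F3H and 0.062 for bZIP5 among the falls.

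**Figure D2:**
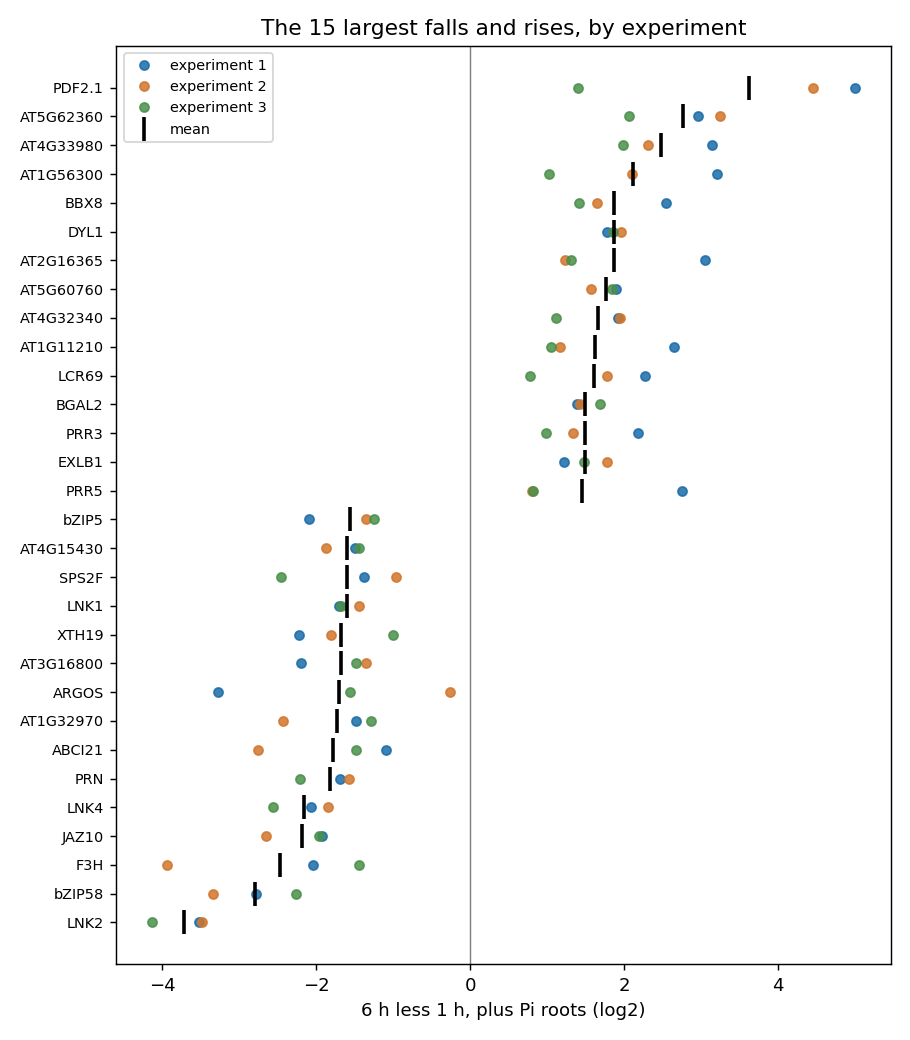
Change from 1 h to 6 h (log2, x axis) in plus Pi roots for the 15 largest rises and 15 largest falls among named genes called. Points are the 3 experiments and the bar is their mean; all points of a gene lie on 1 side of 0 by the rule that picked the genes, closely packed for DYL1 and LNK1 and spread widely for PDF2.1, F3H and ARGOS.

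The genes of starch metabolism moved in both directions. Of 18 listed, 10 were measured, 3 rose and 2 fell, with a median of 0.07. Of all probe sets 0.91% were called higher and 1.23% lower. PHS2, the cytosolic glucan phosphorylase that works on sugars released from starch at night, measured 6.22, 6.41 and 6.27 at 1 h and 7.77, 7.65 and 7.13 at 6 h, a rise of 1.22 (SE 0.13, adjusted p = 4.56e-05). Every 6 h array was above every 1 h array, and the 0 h and 24 h levels of 6.35 ± 0.20 and 6.40 ± 0.02 (SD, n = 3 each) lay with those of 1 h. PWD, a kinase that phosphorylates starch granules before breakdown, rose by 0.64 (adjusted p = 0.0396), and DPE1, the plastid disproportionating enzyme of breakdown, named after its value was seen, by 0.57 (adjusted p = 0.0429). SBE2.2, a starch branching enzyme, fell by 0.67 (adjusted p = 0.00578) and SS1, a starch synthase, by 0.57 (adjusted p = 0.0154). Of the members that did not pass, ADG1, a subunit of the enzyme that makes ADP-glucose for synthesis, changed by 0.28 and CT-BMY, a beta-amylase of breakdown, by -0.19 (adjusted p = 0.256 and 0.609). PHS2 alone of the 5 passed without the block, and PWD lost its call without any one of 5 of the 6 arrays (adjusted p up to 0.24), SS1 without any one of 3 (adjusted p up to 0.075).

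Some members of the wall, division and pathway lists were called, to be read against the 0.91% of all probe sets called higher and the 1.23% called lower. Of 18 measured xyloglucan endotransglucosylase/hydrolase (XTH) genes, which cut and rejoin wall xyloglucan, 2 fell and 0 rose, and their median change was -0.32. These were XTH18 and XTH19, adjacent genes on chromosome 4 with 0 genes between them. XTH18 measured 9.15, 8.97 and 8.07 at 1 h and 7.43, 7.35 and 7.33 at 6 h, and fell by 1.36 (adjusted p = 0.00371), and XTH19 measured 9.68, 10.01 and 8.61 at 1 h and 7.46, 8.20 and 7.61 at 6 h, and fell by 1.68 (adjusted p = 0.0322; 0.0745 without the block). In both, the 1 h array of experiment 3 was the lowest of its group. The 2 genes are close relatives, and whether their probe sets pick up each other's RNA was not tested.

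Of 8 measured genes of mitosis 2 rose and 0 fell, with all 8 changes above 0 and a median of 0.39. CYCA1;1 rose by 0.68, from 7.19, 7.5 and 7.33 to 7.92, 8.14 and 8.01 (adjusted p = 0.0172), and CYCB2;2 by 0.66, from 6.35, 6.51 and 6.05 to 6.87, 6.86 and 7.16 (adjusted p = 0.0473). The 6 h arrays were above the 1 h arrays for both cyclins. Neither passed without the block (adjusted p = 0.127 and 0.154), and each lost its call without any one of 5 of the 6 arrays (adjusted p up to 0.089 and 0.21).

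Single members fell in 7 other lists and 2 members in that of jasmonate. In the jasmonate list, where 4 of 22 genes were measured, AOS, which makes the jasmonate precursor allene oxide, fell by 0.74 (adjusted p = 0.000731; 0.312 without the block) beside JAZ10. F3H was the single call among 11 flavonoid genes, whose median was -0.52, and TT4, the chalcone synthase of the first step, changed by -1.19 without passing (adjusted p = 0.122). EBF2, an F-box protein that removes the ethylene factor EIN3, fell by 0.86 (adjusted p = 0.0418) among 9 ethylene genes. CKX3, a cytokinin oxidase, fell by 0.55 (adjusted p = 0.0322) among 13 cytokinin genes, and SULTR4;1, a vacuolar sulfate exporter, by 0.71 (adjusted p = 0.0369) among 14 sulfate genes. Those 3 genes lost their calls without the block (adjusted p = 0.351, 0.154 and 0.0818) and without any one of 5 of the 6 arrays (adjusted p up to 0.23, 0.17 and 0.16).

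OMT1, a methyltransferase of the phenylpropanoid pathway, fell by 0.53 (adjusted p = 0.0206) among 7 genes, NDB2, an external NADH dehydrogenase of mitochondria, by 0.66 (adjusted p = 0.0495) among 4, and HSP81-2, a cytosolic HSP90 chaperone, by 0.35 (adjusted p = 0.0466) among 15. None of these 3 passed without the block (adjusted p = 0.253, 0.784 and 0.256), and they were lost without any one of 4, 5 and 6 of the 6 arrays (adjusted p up to 0.13, 0.21 and 0.20). With the clock lists, 28 of the 377 list genes measured were called, which is 7.43% against 2.14% of all probe sets tested, and 23 of the 37 lists with a measured gene held no call. The lists were chosen with earlier results of these data known, and each gene stands for its brightest probe set. These shares are therefore not alike, and the higher one is no test of the lists.

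The phosphate, iron and nitrate lists held no call, which at 2.14% of all probe sets called is near the background for lists of this size. Of 18 phosphate-response genes 0 passed and the median was 0.01. SPX1, an inhibitor of the phosphate response that is itself induced by starvation, measured 5.72, 5.82 and 6.50 at 1 h and 7.0, 6.41 and 5.89 at 6 h (adjusted p = 0.658), so that its groups overlapped and experiment 3 went the other way. The 18 iron genes (median -0.15) and 16 nitrate and ammonium genes (median -0.11) also gave 0 calls. IRT1, the root iron transporter, measured 7.28, 7.0 and 6.78 at 1 h and 4.92, 4.88 and 8.82 at 6 h (adjusted p = 0.756), with experiments 1 and 2 lower and experiment 3 higher. FER1, an iron-storing ferritin, changed by 0.12 (adjusted p = 0.91).

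Touch and rapid-stress genes, which answer handling within minutes, gave 0 calls of 26, again near the 2.14% of all probe sets, with a median of 0.07. TCH4, a touch-induced XTH, measured 6.82, 6.67 and 7.0 at 1 h and 7.46, 6.01 and 5.53 at 6 h (adjusted p = 0.658) after 9.94 ± 0.73 (SD, n = 3) at 0 h. TCH2, a calmodulin-like protein, measured 7.22, 7.20 and 7.37 at 1 h and 7.06, 6.75 and 6.81 at 6 h (adjusted p = 0.259) after 9.19 ± 0.48 (SD, n = 3) at 0 h. Both genes had their high level at 0 h, outside the comparison made here.

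Genes that low sugar switches on gave 0 calls of 17, near the 2.14% of all probe sets. Of the 17 changes 16 were above 0, and the median was 0.65. ASN1, an asparagine synthetase that darkness and sugar shortage induce, measured 7.02, 6.29 and 6.14 at 1 h and 9.70, 7.81 and 6.67 at 6 h. Its change of 1.57 had an SE of 0.79 (adjusted p = 0.395), and the rise was 2.68, 1.52 and 0.53 in experiments 1, 2 and 3. The list's median change was 0.88, 0.19 and 0.42 in the 3 experiments.

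Marker genes of root cell types and of leaf photosynthesis gave 0 calls, which at 2.14% of all probe sets called is near the background. Calls compare 2 times and do not bear on root identity, and the levels below overlap, so that root identity was not tested. Of 8 root hair markers measured the gene means at 1 h ran from 6.11 to 9.14 log2 units, and of 10 endodermis and suberin markers from 4.01 to 8.57, within an overall range of 2.61 to 14.17. The median changes were 0.07 and 0.10. For root hair markers they were -0.04, -0.46 and 0.78 in experiments 1, 2 and 3, and for endodermis and suberin markers -0.16, 0.04 and 0.25. The average level of the 8 root hair markers lay between 6.98 and 8.32 in the 1 h arrays and between 7.72 and 7.87 in the 6 h arrays. Of the phloem and stele markers 1 of 7 had a probe set of its own, and of the root cap and meristem markers 0 of 5. Of 25 leaf photosynthesis genes 9 were measured, with gene means at 1 h from 3.77 to 6.47, which overlaps the ranges of both root marker sets. The average level of the 9 lay between 5.01 and 5.22 in the 1 h arrays and between 5.14 and 6.07 in the 6 h arrays. Their median change was 0.29, and 0.83, 0.23 and 0.13 in experiments 1, 2 and 3, so that experiment 1 had the largest shift of leaf genes. The median of the midday and evening clock list followed the same order, with 1.34, 0.87 and 0.56, and PRR5, TOC1, PRR3, GI, PHS2 and BBX8 also rose most in experiment 1, whereas the morning clock list had medians of -0.59, -0.87 and -0.84. Genes of low oxygen gave 0 calls of 8 and a median of -0.52, but -2.49 in experiment 3 against -0.22 and 0.53 in experiments 1 and 2, and their part and that of the leaf genes in the other changes was not tested.

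The same interval without phosphate was measured on other arrays, but in the same fit, with a shared estimate of the spread and shared experiment blocks. The calls of the 2 supplies are thus not fully independent. Without phosphate 6842 probe sets (30.1%) were called, 3368 (14.8%) higher and 3474 (15.3%) lower. Of the 487 called in plus Pi roots 332 were called in minus Pi roots in the same direction, which is 68.2% of the plus Pi calls and 4.85% of the minus Pi calls, 7 in the opposite direction and 148 not at all. The difference between the changes was called at 2059 probe sets (9.05%), 1097 (4.82%) with the higher change in plus Pi roots and 962 (4.23%) with the lower. It was called at 87 of the 487 (17.9%). The 487 were picked for their plus Pi change, which is part of this difference, so the 2 shares are not alike. The 2059 became 335 without the block, and 1316, 1145, 1131, 1351 and 1260 without the 1 h plus Pi array of experiment 1 or 3, the 6 h plus Pi array of experiment 3, the 1 h minus Pi array of experiment 2 or the 6 h minus Pi array of experiment 1. Median centring turned its split to 1366 and 785. At 1972 of the 2059 the change in plus Pi roots was not itself called.

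**Figure D3:**
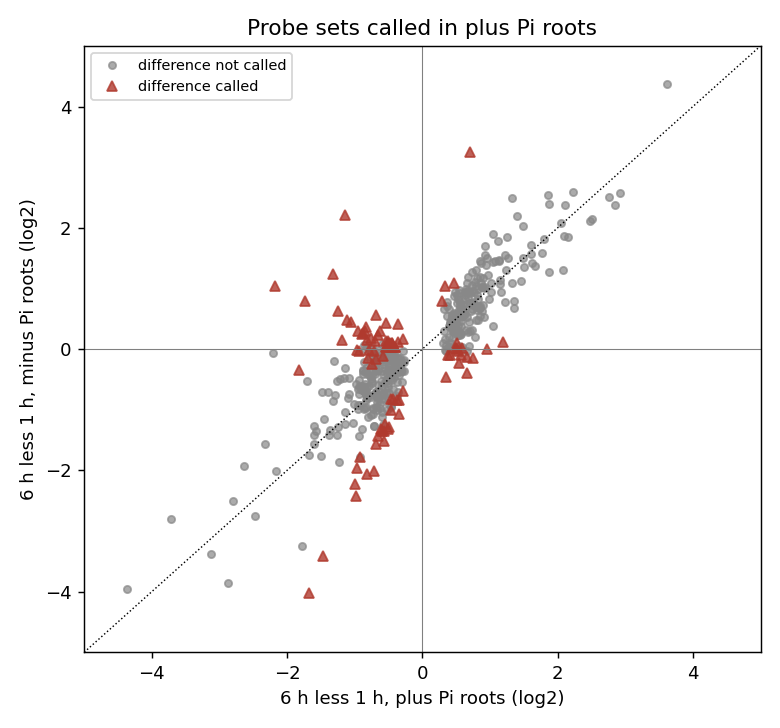
Change from 1 h to 6 h (log2) in plus Pi roots (x axis) and minus Pi roots (y axis) at the 487 probe sets called in plus Pi roots; the dotted line marks equal changes. The 2 changes had the same sign at 434 probe sets, and triangles mark the 87 where the difference between supplies was called.

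The clock genes that passed changed in the same direction in both supplies. LNK2 fell by 2.80 in minus Pi roots, a difference of -0.92 (95% interval -1.59 to -0.26, adjusted p = 0.0767). For TOC1 the difference was -0.08 (interval -0.51 to 0.36), for PRR3 -0.003 (interval -0.57 to 0.57), for GI -0.19 (interval -0.55 to 0.18) and for PRR5 0.32 (interval -0.77 to 1.42). For LNK1 it was -0.34 (interval -0.73 to 0.04), for LNK4 -0.15 (interval -0.87 to 0.58) and for RVE1 -0.08 (interval -0.54 to 0.37). No difference was called for these 8 genes, and each interval reaches beyond 0.5 in at least 1 direction, so that differences of that size are not shown to be absent. Within the clock lists the difference was called for RVE2 (adjusted p = 0.0262), which changed by -0.49 with phosphate and -1.49 without, and for a gene the reference names TCP11 (adjusted p = 0.000592), which changed by 0.05 with phosphate and -1.48 without.

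Of the 49 genes called in plus Pi roots that the naming rules picked, 8 had a called difference. They too were picked for a plus Pi change that is part of the difference, so their share is no separate result. JAZ10 fell by 2.18 with phosphate and changed by 1.05 in the other direction without it (difference -3.23, interval -4.13 to -2.33, adjusted p = 0.000385). PRN changed by -1.83 with phosphate and -0.35 without it (difference -1.47, adjusted p = 0.00151). AOS changed by -0.74 and -0.25 (difference -0.50, adjusted p = 0.0437) and XTH19 by -1.68 and -4.02 (difference 2.34, adjusted p = 0.0157). AT1G32970, SULTR4;1, NDB2 and OMT1 were called lower with phosphate and changed by 0.80, 0.13, 0.23 and 0.03 without it. For these genes the adjusted p of the difference was 0.0108, 0.0388, 0.0264 and 0.0401. The low-sugar list had 13 of 17 genes higher in minus Pi roots, where 14.8% of all probe sets were higher, and the difference was called for 3 of the 17. ASN1 changed by 5.35 there against 1.57 (difference -3.78, adjusted p = 0.0428). Of the 8 mitosis genes 2 were higher with phosphate, CYCA1;1 and CYCB2;2, and 4 were lower without it, the difference being called for CYCB1;1, PLE, AUR1 and AUR2. Autophagy genes gave 0 calls of 8 with phosphate and 8 of 8 higher without it, and the difference was called for 2 of the 8. Phosphate-response genes gave 0 of 18 with phosphate and 10 higher and 2 lower without it, and the difference was called for 6 of the 18. These counts stand beside 2.14% of all probe sets called with phosphate and 30.1% without it.

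The 8 named genes with the smallest adjusted p for the difference had changes in plus Pi roots between -0.20 and 0.28, none of them called. ICL, the isocitrate lyase of the glyoxylate cycle, measured 4.50, 5.20 and 4.67 at 1 h and 4.43, 4.86 and 4.90 at 6 h with phosphate, and rose by 3.88 without it. ACT11, an actin, changed by -0.08 with phosphate and by -2.24 without it. BGLU25, a beta-glucosidase, changed by -0.14 and 2.53, CDI by -0.11 and -1.66, AT2G41380 by 0.28 and 4.03, AT1G59660 by -0.18 and -2.65, AT5G47440 by -0.20 and -2.35 and AT5G61890 by -0.16 and 2.1. In these 8 genes the change was carried by the minus Pi arrays, but not at the same time in all. At 0, 1 and 6 h without phosphate AT5G47440 averaged 5.23, 7.21 and 4.86 and AT1G59660 6.05, 8.57 and 5.93, so that 1 h stood apart. CDI averaged 8.46, 9.04 and 7.38, and ACT11 8.67, 8.79 and 6.55. ICL, BGLU25, AT2G41380 and AT5G61890 had their highest minus Pi mean at 6 h.

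**Figure D4:**
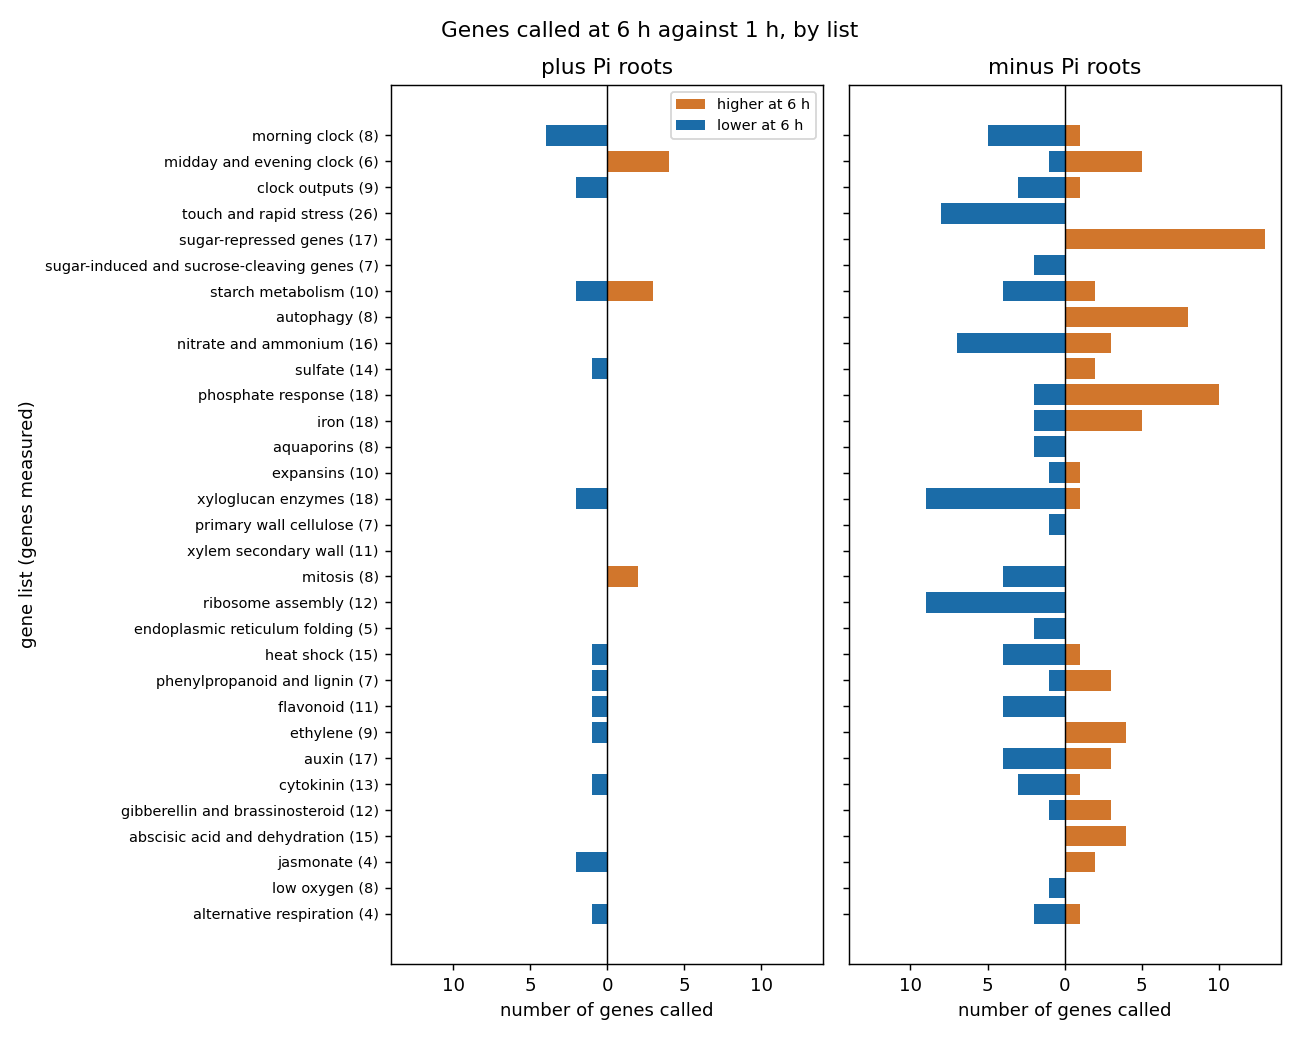
Number of genes called higher (right of 0) and lower (left of 0) at 6 h against 1 h in each list with at least 4 genes measured, in plus Pi roots (left panel) and minus Pi roots (right panel), with the number measured in brackets. Of all probe sets 2.14% were called in plus Pi roots and 30.1% in minus Pi roots, so bars are longer in the right panel for most lists; the difference between supplies was called for 3 of 17 low-sugar and 2 of 8 autophagy genes.

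Levels at 0 h and 24 h, both 1 h into the light, were available for each gene in plus Pi roots, the 1 h and 6 h arrays being shared with the comparison above. TOC1 stood at 7.72 ± 0.24 and 7.67 ± 0.26 at 0 h and 24 h, PRR3 at 5.35 ± 0.62 and 5.51 ± 0.70, and GI at 9.27 ± 0.26 and 9.20 ± 0.20 (SD, n = 3 each). For each of these genes the means at 0, 1 and 24 h lay within 0.2 of one another and the 6 h mean was the highest of the 4. PDF2.1 stood at 6.49 ± 1.25 and 7.08 ± 0.77 at 0 h and 24 h, and F3H at 7.25 ± 1.1 and 7.20 ± 0.42 (SD, n = 3 each), with 6 h the highest mean for the first gene and the lowest for the second. JAZ10 went otherwise, with 5.44 ± 0.27 at 0 h and 4.87 ± 0.48 at 24 h (SD, n = 3 each), so that its 1 h mean was the one that stood apart. PRN, ARGOS and EBF2, which also fell, had their highest mean at 1 h as well (9.30, 7.31 and 10.14), after 8.11, 5.33 and 7.98 at 0 h. The rise from 0 h to 1 h was called for JAZ10 (adjusted p = 0.0149), PRN (0.00112), ARGOS (0.0207) and EBF2 (4.03e-05). Of the other named falls, ABCI21 and BBX19 were called lower at 1 h than at 0 h.

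**Figure D5:**
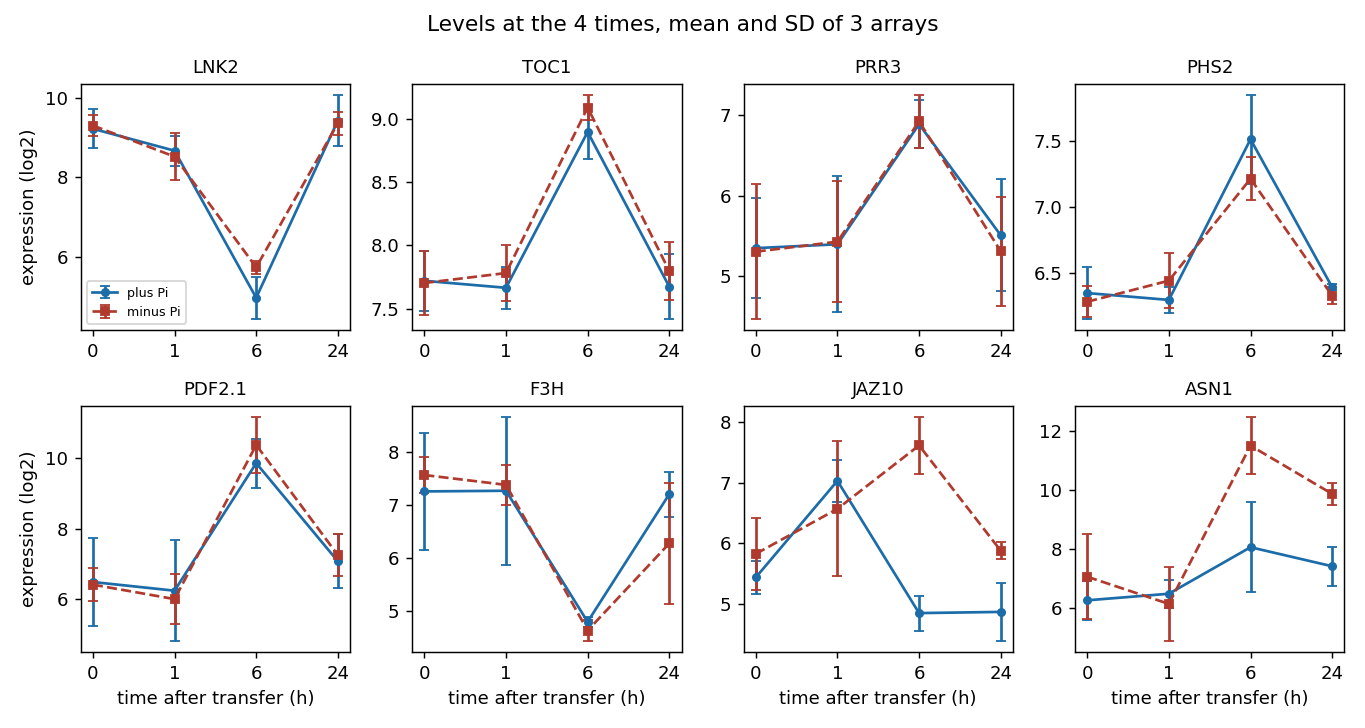
Expression (log2, mean and SD of 3 arrays, y axis with a scale of its own in each panel) at 0, 1, 6 and 24 h after transfer (x axis, evenly spaced and not to scale) for 8 genes in plus Pi roots (circles, solid line) and minus Pi roots (squares, broken line). LNK2, TOC1, PRR3, PHS2, PDF2.1 and F3H stand apart at 6 h in both supplies, whereas JAZ10 and ASN1 at 6 h differ between the supplies.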

How the data were processed

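The deposited values are log2 expression values of one-colour Affymetrix arrays, one column per array and normalized by the authors. The submitters' processing notes name limma, and no source used here gives the probe summary or normalization. The authors' deposited comparison table (log2 differences between supplies, p-values and test statistics as scores, per the file headers) sets minus against plus Pi at each time and was used only to check the scale of the values. No background or detection values were used, and array medians lay between 6.35 and 6.45.

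Here limma 3.58.1 (R 4.3.3) was fitted to 22746 probe sets, leaving out 64 control sets, with 8 group means over all 24 arrays and the experiment as a fixed block (14 residual degrees of freedom). Benjamini-Hochberg adjustment ran over all probe sets at a threshold of 0.05. An adjusted p in the text is from this fit unless the sentence says that it is without the block, an array or an experiment. The experiment numbers, which the labels give, pair the arrays: what set a 1 h array apart from its group mean correlated with the same for the 6 h array at 0.74, 0.41 and 0.61 in experiments 1, 2 and 3. An exact permutation test of 3 against 3 arrays could not go below p = 0.1, or 0.25 for 3 pairs.

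Genes were named from the deposited locus column and the platform annotation, with symbols from the RefSeq table of assembly TAIR10.1. A probe set named 1 gene in 17103 cases, several in 672 and none in 4971, and a list gene was represented by its brightest probe set that names only that gene. Named genes were the 15 largest rises and falls with the same sign in 3 experiments, up to 4 called members of each list, several genes given at any value and the 8 smallest adjusted p for the difference. Other list members given by value were named after their values were seen. Members and lists were chosen with earlier results of these data known. The number of arrays limits the precision. The alternatives left out the block or arrays, or changed the normalization, filter, moderation or threshold.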

Additional observations from a re-analysis of the deposited data

Results flagged for a closer look

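A test of the difference between the supplies picked out 2059 probe sets at which the change from 1 h to 6 h was not the same with and without phosphate. The count was 335 without the experiment as a block. Among the genes named, the difference (plus Pi less minus Pi, log2) was -3.23 at JAZ10, -1.47 at PRN, -2.53 at AT1G32970, -0.50 at AOS, -0.83 at SULTR4;1, -0.89 at NDB2 and -0.56 at OMT1, which all fell with phosphate. It was -3.94 at ICL, -3.75 at AT2G41380, -2.67 at BGLU25, -2.26 at AT5G61890, -2.24 at FER1 and -3.78 at ASN1, none of them called with phosphate. The difference was 2.34 at XTH19, which fell in both supplies, and 2.15 at AT5G47440, 2.47 at AT1G59660, 1.55 at CDI and 2.16 at ACT11, where the fall was in minus Pi roots. At TCH2 it was 1.4. The plus Pi mean of TCH2 was already down from 9.19 at 0 h to 7.26 at 1 h, and its minus Pi mean was 9.18 at 1 h and 7.40 at 6 h.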

How the results depend on the processing

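Without the replicate block 132 probe sets were called in plus Pi roots, 3681 in minus Pi roots and 335 for the difference. With only the arrays compared the counts were 29, 4169 and 888, and at a minimum of 2-fold 100, 1111 and 531. The 12 arrays of plus Pi roots alone gave 299 calls. Leaving out the 3 arrays of experiment 2 whose label numbers lie outside the run of the others, 1 of them a 1 h plus Pi array, gave 255 in plus Pi roots and 1029 for the difference. Leaving out single arrays or whole experiments gave 87 to 437 calls in plus Pi roots, 3707 to 6756 in minus Pi roots and 242 to 2853 for the difference. Median centring kept the split in plus Pi roots near 208 higher and 264 lower but moved it to 2935 and 4074 in minus Pi roots and to 1366 and 785 for the difference, against 3368 and 3474 and 1097 and 962. Of the 49 named genes called in plus Pi roots 29 kept their call without any single array and 15 also without any whole experiment. Under the alternatives 0 of the 49 changed direction, which is no separate support. All 49 had the same sign in the 3 experiments, and several alternatives, such as leaving out the block, cannot alter a change. The 7 that passed under every alternative that tested them were LNK2, LNK4, LNK1, bZIP58, DYL1, AT4G15430 and AT5G60760, while 24 of the 49 were lost without the block and 40 with only the arrays compared. Of 777 list medians recomputed under the alternatives 41 moved by more than the spread between experiments. Several alternatives, among them those of the block, the moderation and the 2-fold threshold, cannot alter a median. Part of the 777 could therefore not move, and the share that moved is no measure of stability.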

Other observations

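Several other called genes in plus Pi roots are given here, picked after their values were seen and from no list. The amino acid carrier AAP6 fell by 0.99 (adjusted p = 0.0406), AAP4 by 0.94 (adjusted p = 0.00763) and UMAMIT11 by 1.1 (adjusted p = 0.0117), each lower in 3 of 3 experiments, and KUP9, of the potassium transporter family, fell by 1.29 (adjusted p = 0.00582). None of these 4 passed without the block. GR1, a glutathione reductase, fell by 0.76 (adjusted p = 0.000366) and changed by 0.18 without phosphate (difference -0.94, adjusted p = 0.00105), and VTC2, of ascorbate synthesis, fell by 0.67 (adjusted p = 0.0215).

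Also picked after their values were seen, and from no list, 4 genes with roles in cell division were higher at 6 h in plus Pi roots: the kinase AUR3 by 0.53 (adjusted p = 0.0264), the microtubule-binding MAP65-4 by 0.56 (adjusted p = 0.0165), 3xHMG-box2 by 0.66 (adjusted p = 0.0284) and UVI4-LIKE by 0.57 (adjusted p = 0.0313). Each rose in 3 of 3 experiments and none passed without the block. MIZ1, needed for roots to bend towards moisture, rose by 1.19 (adjusted p = 0.000856) and changed by 0.11 in minus Pi roots (difference 1.08, adjusted p = 0.0112). AT4G33985, next to AT4G33980 with 0 protein-coding genes between them, rose by 0.75 (adjusted p = 0.0331) and changed by -0.14 without phosphate (difference 0.89, adjusted p = 0.0354).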
